A study of Zea mays with 12 samples.

Results

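The comparison sets the inner, starchy cells of naked endosperm (nkd) mutant maize kernels against the surface aleurone cells of B73 kernels, so that both the cell type and the genotype differ. Its members are 6 of the 12 RNA-seq libraries of the series: 3 of nkd starchy endosperm and 3 of B73 aleurone. The other libraries, 3 of nkd aleurone and 3 of B73 starchy endosperm, entered the same fit and are used where the difference is taken apart into its 2 components. All kernels came from field-grown plants and were taken at 15 days after pollination. The nkd plants were a backcross to B73 in its 4th generation, and B73 is the wild-type inbred line. Cells were captured by laser from fixed, paraffin-embedded sections, and their RNA went through 2 rounds of T7-based linear amplification before sequencing. Each of 3 flow cells carried 1 biological replicate of all 4 groups, so the replicate number is also the flow cell.

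In a maize kernel the aleurone is the outermost endosperm layer. It stores oil and protein, carries much of the endosperm's stress and pathogen protection, and secretes hydrolases when the seed germinates. The starchy endosperm beneath it fills with starch and with zeins, the prolamin storage proteins of protein bodies, and later dies. The naked endosperm phenotype comes from mutations in Nkd1 and Nkd2, duplicated transcription factor genes of the INDETERMINATE type with zinc fingers, and mutant kernels have disturbed aleurone layers. The question put here is what separates mutant inner cells from normal aleurone. Numerically, the log2 difference between nkd starchy endosperm and B73 aleurone is the sum of the average cell type difference (starchy endosperm over aleurone, over both genotypes) and the average genotype difference (nkd over B73, over both cell types). A gene can therefore be near 0 because nothing changed or because both components cancel.

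Values per gene are TMM-scaled CPM, reads divided by a scaled library size, from whole reads recovered from the deposited values, with 1 transcript kept per gene. CPM is not divided by transcript length, so levels are compared between groups and not between genes. Library totals were 25767015, 35474306 and 30553966 reads in nkd starchy endosperm, against 64000867, 9929030 and 63053500 reads in B73 aleurone. On the log2(CPM + 1) scale, replicate libraries of nkd starchy endosperm correlated with each other at 0.894 to 0.929 across genes, and those of B73 aleurone at 0.957 to 0.96. Across the groups the correlation was 0.836 to 0.884. These are descriptions over 25499 genes that are not independent replicates. The library labelled B73 starchy endosperm replicate 2 stood close to B73 aleurone, at 0.929 to 0.957. It enters the 2 components, the reverse pairing, the group means of B73 starchy endosperm and the shared estimate of spread, and the calls without it are given with the components and the reverse pairing.

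The mutated genes themselves were still transcribed. Nkd1 measured 127.5, 111.4 and 114.5 CPM in nkd starchy endosperm, against 147.3, 129 and 168.1 CPM in B73 aleurone. Nkd2 measured 42.5, 51.5 and 46.6 CPM in nkd starchy endosperm, against 67.0, 65.6 and 50.9 CPM in B73 aleurone. Neither passed the test between these groups: the log2 difference was -0.33 (SE 0.41, adjusted p = 0.673) for Nkd1 and -0.38 (SE 0.30, adjusted p = 0.477) for Nkd2. In the average genotype difference both fell in nkd, Nkd1 by 1.10 (adjusted p = 0.0212) and Nkd2 by 1.53 (adjusted p = 0.000491) on the log2 scale. The levels sum over the whole transcript and say nothing of whether the RNA encodes a working protein.

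Of 25499 genes tested, 678 were higher in nkd starchy endosperm than in B73 aleurone (2.66%) and 1191 were lower (4.67%), together 1869 genes (7.33%) at an adjusted p under 0.05 by edgeR's quasi-likelihood test. Falls were on the whole larger in size than rises. The median log2 change of called genes was -3.95 among the lower genes, or -3.85 with genes of 0 reads set at their bound, and 2.14 among the higher genes. A log2 change of 4 or more was found in 591 lower and 170 higher genes. Of the lower genes, 159 had no read in any of the 3 nkd starchy endosperm libraries, while 24 of the higher genes had none in B73 aleurone. Depth differed between the libraries, and its part in these counts was not tested. The libraries of the groups did not overlap for 1840 of the 1869 called genes, set beside 33.0% of all genes tested. The calls were made from these same libraries, so the lack of overlap is not separate evidence. The number of calls leaned on single libraries. Without B73 aleurone replicate 1, 2 or 3 it fell to 168, 222 or 131 higher genes and to 608, 737 or 476 lower genes. Without nkd starchy endosperm replicate 1 it was 289 higher and 555 lower, and without replicate 2 it was 500 higher and 641 lower. With the flow cell as a replicate block it was 520 higher and 1019 lower.

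The 10 largest rises among named genes were led by Hsf26, a heat shock transcription factor. It measured 47.7, 129.1 and 17.1 CPM in nkd starchy endosperm, against 0.26, 0.903 and 0.613 CPM in B73 aleurone (log2 change 6.86, SE 1.05, adjusted p = 0.00263). gst42, a glutathione S-transferase gene, measured 46.9, 59.0 and 33.1 CPM in nkd starchy endosperm, against 1.22, 2.53 and 1.93 CPM in B73 aleurone (log2 change 4.63). nfd106, named for a nucleosome and chromatin assembly factor, measured 132.6, 118.4 and 158.3 CPM in nkd starchy endosperm, against 7.86, 19.1 and 25.2 CPM in B73 aleurone (log2 change 2.97, adjusted p = 0.00735). The groups of these 3 genes lay apart, which the rule for this set required. The other rises in this set were hsp82, ERTC, zpu1, hsp18f, the auxin response factor gene ARF30, HSP90-1 and the heat shock factor gene Hsf03, with log2 changes between 2.69 (Hsf03) and 4.15 (hsp82). Hsf03, for example, had 6.61, 14.4 and 10.9 CPM in nkd starchy endosperm and 2.28, 0.994 and 1.59 CPM in B73 aleurone. gst42, nfd106 and HSP90-1 passed the test under all 23 alternatives run, and Hsf26 under the 22 in which it could be tested. The calls of ERTC, Hsf03 and ARF30 were lost without single libraries, with adjusted p up to 0.0613 for ERTC and 0.0727 for Hsf03 without B73 aleurone replicate 3, and up to 0.117 for ARF30 without B73 aleurone replicate 1. ARF30 also missed the threshold with the replicate block (adjusted p = 0.0546, with 0.000154 to 0.117 over its alternatives). The calls of hsp82, zpu1 and hsp18f were lost without single libraries as well, with adjusted p up to 0.174, 0.067 and 0.0568.

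The largest falls took genes that were well expressed in B73 aleurone close to the detection limit. Zlp had 3 reads in all of nkd starchy endosperm, at 0, 0 and 0.0697 CPM, against 11249 reads in B73 aleurone, at 46.0, 44.6 and 123.4 CPM. ICL, isocitrate lyase of the glyoxylate cycle, had 1 read in nkd starchy endosperm and 4067 in B73 aleurone, where it measured 31.6, 3.70 and 35.7 CPM. With so few reads the size of these differences is loosely known: the B73 aleurone level was 3158 times the nkd starchy endosperm level for Zlp (95% counting interval 1080 to 15310) and 3425 times for ICL (614.3 to 135300). ckx1, a cytokinin oxidase gene, measured 0, 0.124 and 0.0465 CPM in nkd starchy endosperm, against 6.16, 15.8 and 22 CPM in B73 aleurone (log2 change -7.83, adjusted p = 0.0011). mtl2 measured 1.21, 1.54 and 4.42 CPM in nkd starchy endosperm, against 552.6, 171.7 and 675.6 CPM in B73 aleurone (log2 change -7.60, adjusted p = 0.0006). chiA, sus2, cat2, ZCN10 and gst31 completed the set, with log2 changes between -7.80 (chiA) and -6.66 (gst31). ZCN10, of the family of the flowering signal FT, is listed under a pair of identifiers with nearly the same values and is counted once. The falls of these 9 genes passed under all 23 alternatives.

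**Figure D1:**
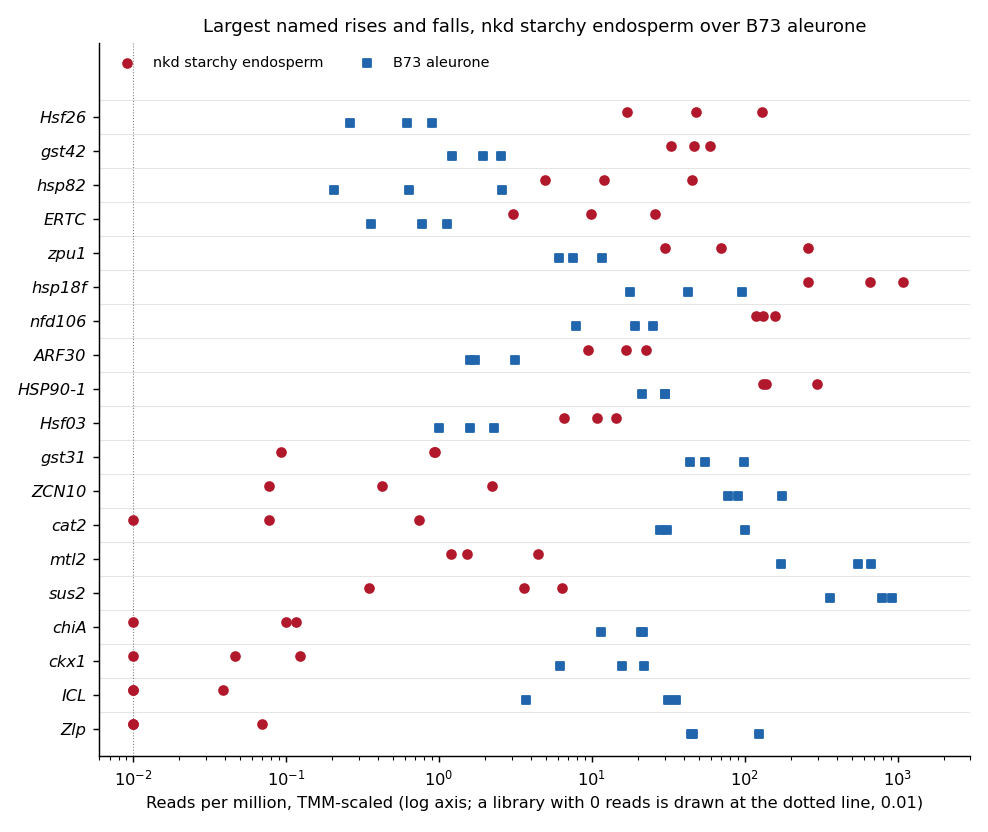
The largest named rises and falls, nkd starchy endosperm (circles) and B73 aleurone (squares), 1 point per library, in TMM-scaled CPM on a log axis; libraries with 0 reads are drawn at the dotted line. Groups without overlap were a condition for being shown. Hsf26 lies at 17.1 to 129.1 CPM in nkd starchy endosperm and at 0.26 to 0.903 CPM in B73 aleurone.

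Both components of the difference were called for many genes. The average cell type difference was called for 3419 genes (13.4%), 1527 higher (5.99%) and 1892 lower (7.42%) in starchy endosperm than in aleurone. The average genotype difference was called for 3997 genes (15.7%), 1743 higher (6.84%) and 2254 lower (8.84%) in nkd than in B73. Without B73 starchy endosperm replicate 2 the counts were 4323 for cell type and 3937 for genotype, and in that fit 23 zeins rose with cell type and 24 fell with genotype, while 10 oil genes fell with cell type and 2 with genotype. Without B73 aleurone replicate 3 the cell type count was 1739, without nkd starchy endosperm replicate 1 it was 2220, and without B73 aleurone replicate 1 the genotype count was 2581. Both components share libraries with the comparison itself, so their values are given side by side and not as separate evidence.

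Zeins showed the 2 components in opposite directions. Of 26 zein genes, none passed the test between nkd starchy endosperm and B73 aleurone, set beside the 7.33% of all genes, and their median log2 difference was -0.94, against -0.002 over all genes tested. At an adjusted p under 0.05 in the components, 22 of the 26 rose with cell type (median log2 difference 2.77) and 24 fell with genotype (median -3.60). These counts are set beside 5.99% and 8.84% of all genes. As a share of all gene reads, zeins took 10.7%, 4.18% and 4.98% in nkd starchy endosperm (mean 6.62 ± 3.56, SD, n = 3), against 26.6%, 13.9% and 16.9% in B73 aleurone (mean 19.1 ± 6.62, SD, n = 3). The shares did not overlap, and the difference was -15.9, -9.73 and -11.9 percentage points within flow cells 1, 2 and 3. The mean difference of -12.5 points gave p = 0.1 in a two-sided exact permutation test, the smallest p that 3 against 3 libraries allow. In the remaining groups the share averaged 0.454% ± 0.392 in nkd aleurone and 34.0% ± 8.38 in B73 starchy endosperm (SD, n = 3 each). The part of captured starchy cells in the zein reads of libraries labelled aleurone was not tested. In bulk samples of this kind, fewer cells of a type and less RNA per cell cannot be told apart.

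Single zein genes differed in the size of the change. z1A1_3, a 19-kD-type alpha zein of the z1A group, measured 19960, 3228 and 3726 CPM in nkd starchy endosperm, against 118300, 23800 and 46970 CPM in B73 aleurone. Its groups did not overlap, but the spread within them was wide (log2 difference -2.81, SE 1.09, adjusted p = 0.131). z1A2_1 and z1A1_5 had log2 differences of -2.40 (adjusted p = 0.138) and -2.33 (adjusted p = 0.164), also without overlap. gz27, the 27-kD-type gamma zein, measured 11400, 12010 and 6388 CPM in nkd starchy endosperm and 28000, 8957 and 9780 CPM in B73 aleurone, and these ranges overlapped (log2 difference -0.65, adjusted p = 0.553). Over the list 11 zeins were lower without overlap and none higher, set beside 18.9% and 14.1% of all genes. With the flow cell as a replicate block, 5 zeins fell, all of the z1A group (z1A1_2, z1A1_3, z1A1_5, z1A1_6 and z1A2_1). Their adjusted p was then 0.0309 for z1A1_3, 0.0348 for z1A1_5 and 0.036 for z1A2_1, with 0.0132 to 0.418 over the alternatives of these 3 genes. Alpha zein genes are near-identical copies, so reads may be split between them in ways the files do not show.

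Regulators of storage product genes also had components of opposite sign. Of 12 tested, 1 fell, set beside 4.67% of all genes, and the median log2 difference was -0.18. That gene is vp1, described with the maturation genes. With cell type 6 of these rose and 1 fell, set beside 5.99% and 7.42% of all genes, and with genotype 6 fell and none rose, set beside 8.84% and 6.84%. o2, the bZIP activator of alpha zein genes, measured 614.6, 392.8 and 330.1 CPM in nkd starchy endosperm and 495.8, 352.5 and 276.6 CPM in B73 aleurone, with overlapping ranges (log2 difference 0.25, SE 0.43, adjusted p = 0.776). Its cell type component was 1.87 and its genotype component -1.62. Opaque11, a bHLH regulator of endosperm development, had a log2 difference of 0.37 (adjusted p = 0.556), and fl3 one of -0.26 (adjusted p = 0.866).

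**Figure D2:**
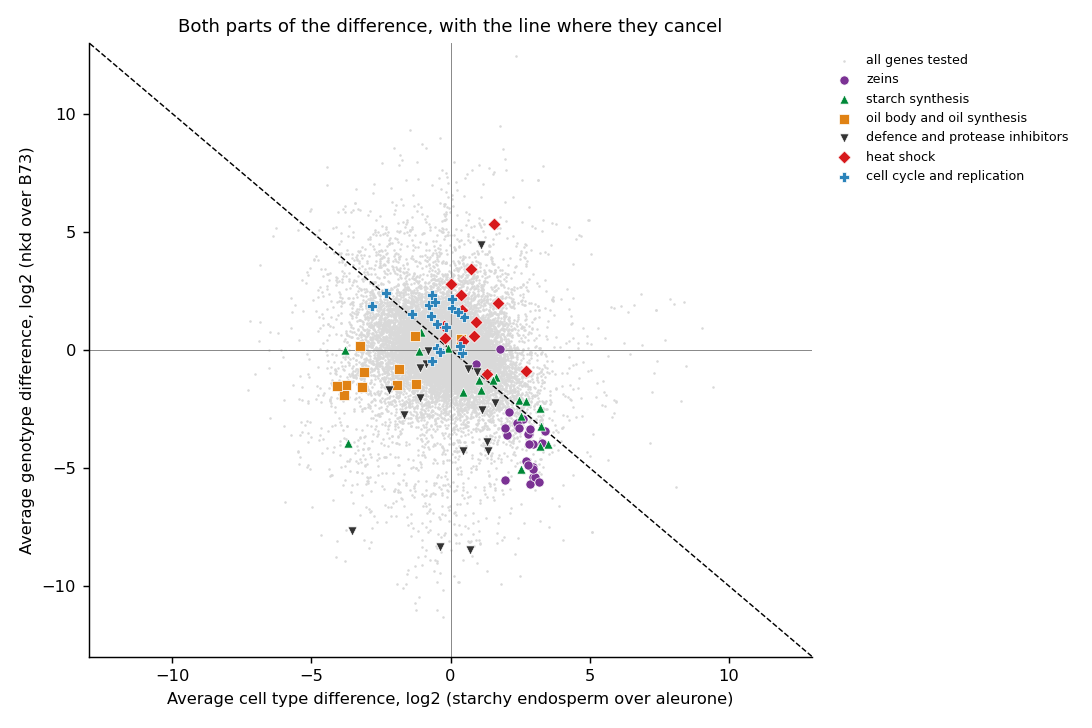
The average cell type difference (horizontal, log2 starchy endosperm over aleurone) and the average genotype difference (vertical, log2 nkd over B73) for all 25499 genes tested (grey) and for 6 gene lists (marked); genes on the dashed line have equal levels in nkd starchy endosperm and B73 aleurone. Most zein and starch genes lie at the lower right near or below the line, most oil genes at the left below it, and all heat shock genes above it.

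Among 19 starch synthesis genes, 1 rose and 4 fell in nkd starchy endosperm, set beside 2.66% and 4.67% of all genes, with a median log2 difference of -0.30. The 4 genes named for their mean CPM, sh2, bt1, ae1 and sh1, gave no call, and their cell type and genotype components had opposite signs. sh2, the large subunit of the endosperm ADP-glucose pyrophosphorylase, measured 2560, 2073 and 896 CPM in nkd starchy endosperm and 3202, 1097 and 1252 CPM in B73 aleurone (log2 difference -0.01, SE 0.51, adjusted p = 0.997). Its cell type component was 3.24 (adjusted p = 0.000969) and its genotype component -3.24 (adjusted p = 0.000167). bt1, the plastid ADP-glucose carrier, had a log2 difference of 0.73 (adjusted p = 0.419) from components of 3.22 and -2.49. ae1, a branching enzyme gene, had a difference of 0.47 (adjusted p = 0.629), and sh1, the main endosperm sucrose synthase gene, one of -0.87 (adjusted p = 0.469). Over the list 12 genes rose and 2 fell with cell type, set beside 5.99% and 7.42% of all genes, while 1 rose and 14 fell with genotype, set beside 6.84% and 8.84%. The summed share of the list was 1.55% ± 0.51 of gene reads in nkd starchy endosperm and 2.06% ± 0.29 in B73 aleurone (SD, n = 3 each).

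The starch genes that did pass were named after their values were seen, apart from zpu1 and sus2. sus2, a sucrose synthase gene, measured 0.35, 6.34 and 3.58 CPM in nkd starchy endosperm, against 794.8, 360.7 and 924.2 CPM in B73 aleurone (log2 change -7.65, SE 1.02, adjusted p = 0.00127). sus1, its relative, measured 45.3, 194.7 and 297.3 CPM in nkd starchy endosperm, against 2715, 1345 and 3392 CPM in B73 aleurone (log2 change -3.79, adjusted p = 0.00935). The 2 genes differ in their components. sus1 had -3.78 for cell type and -0.01 for genotype, while sus2 had -3.68 and -3.97. wx1, the granule-bound starch synthase of amylose synthesis, measured 403, 446.4 and 139.9 CPM in nkd starchy endosperm, against 3516, 1087 and 1029 CPM in B73 aleurone (log2 change -2.51, adjusted p = 0.0382). Agp2, a subunit gene of ADP-glucose pyrophosphorylase, fell less (log2 change -1.34, adjusted p = 0.0426). zpu1, the pullulanase-type debranching enzyme, rose, at 261.4, 30.1 and 69.6 CPM in nkd starchy endosperm and 11.6, 6.14 and 7.53 CPM in B73 aleurone (log2 change 3.83, adjusted p = 0.0131). The calls of sus1 and sus2 held in all 23 alternatives. Without B73 aleurone replicate 1 the adjusted p was 0.168 for wx1, and without B73 aleurone replicate 3 it was 0.143 for Agp2 and 0.067 for zpu1. Agp2 was not called with the replicate block either (adjusted p = 0.0614, with 0.000915 to 0.143 over its alternatives).

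**Figure D3:**
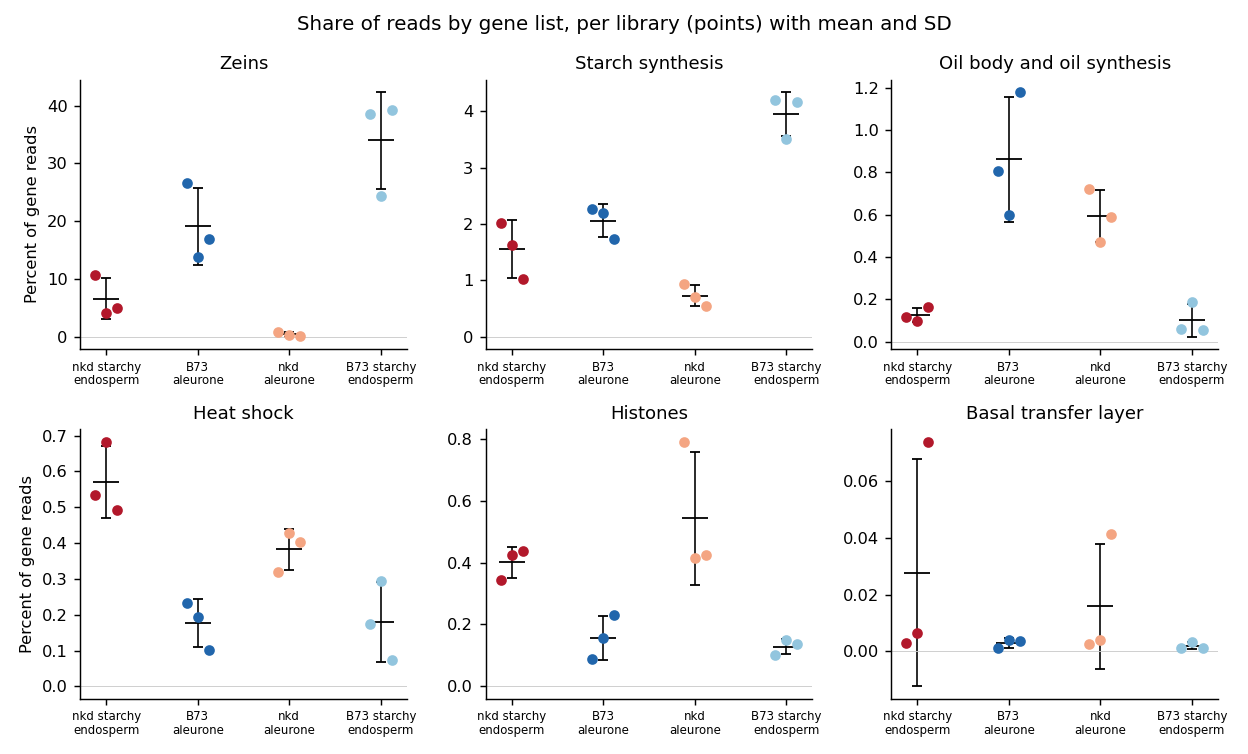
Summed share of all gene reads, in percent, taken by 6 gene lists in each library (points), with group mean and SD (n = 3), for nkd starchy endosperm, B73 aleurone, nkd aleurone and B73 starchy endosperm. Zein shares were 4.18% to 10.7% in nkd starchy endosperm and 13.9% to 26.6% in B73 aleurone, while oil genes had 0.127% and 0.862% on average.

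Oil body and oil synthesis genes were the list with the highest share of falls among those with more than 10 members tested: 8 of 11 fell and none rose, set beside 4.67% and 2.66% of all genes, with a median log2 difference of -3.44. ole1, an oleosin that coats oil bodies, measured 16.8, 117.6 and 188.4 CPM in nkd starchy endosperm, against 6961, 2926 and 7276 CPM in B73 aleurone (log2 change -5.73, SE 0.85, adjusted p = 0.00238). ole17, another oleosin gene, measured 2.37, 19.1 and 30.1 CPM in nkd starchy endosperm, against 1311, 310.4 and 913.1 CPM in B73 aleurone (log2 change -5.62, adjusted p = 0.00566). The oil body associated genes OBAP2A and OBAP1A had log2 changes of -4.77 and -5.23. In all 4 genes every B73 aleurone library exceeded every mutant one by a wide margin. DGAT1-2, which catalyses the last step of triacylglycerol synthesis, measured 1.44, 0.917 and 3.00 CPM in nkd starchy endosperm, against 20.7, 24.6 and 42.7 CPM in B73 aleurone (log2 change -4.03, adjusted p = 0.00236).

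The desaturases split. One fad2-type oleate desaturase gene, GRMZM2G064701, fell (log2 change -2.71, adjusted p = 0.00387), as did the plastid desaturase gene fad7 (log2 change -3.44, adjusted p = 0.0164). A second gene of this type, named FAD2, was at 1012, 539 and 715 CPM in nkd starchy endosperm and 362, 542.2 and 356.9 CPM in B73 aleurone (log2 difference 0.85, adjusted p = 0.285). OBAP2B had a log2 difference of -3.11 (adjusted p = 0.105). Most of the size came with cell type. Of the 11 genes 10 fell with cell type (median log2 difference -3.10), set beside 7.42% of all genes. With genotype 3 fell (median -1.45), set beside 8.84%. ole1 had components of -3.82 for cell type and -1.92 for genotype, and DGAT1-2 had -3.10 and -0.93. The list's summed share was 0.127% ± 0.033 in nkd starchy endosperm and 0.862% ± 0.294 in B73 aleurone (SD, n = 3 each), with differences of -0.688, -0.499 and -1.02 percentage points within flow cells 1, 2 and 3. Leaving out single libraries left 7 to 9 falls, with fad7 at an adjusted p of 0.0548 without B73 aleurone replicate 3.

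**Figure D4:**
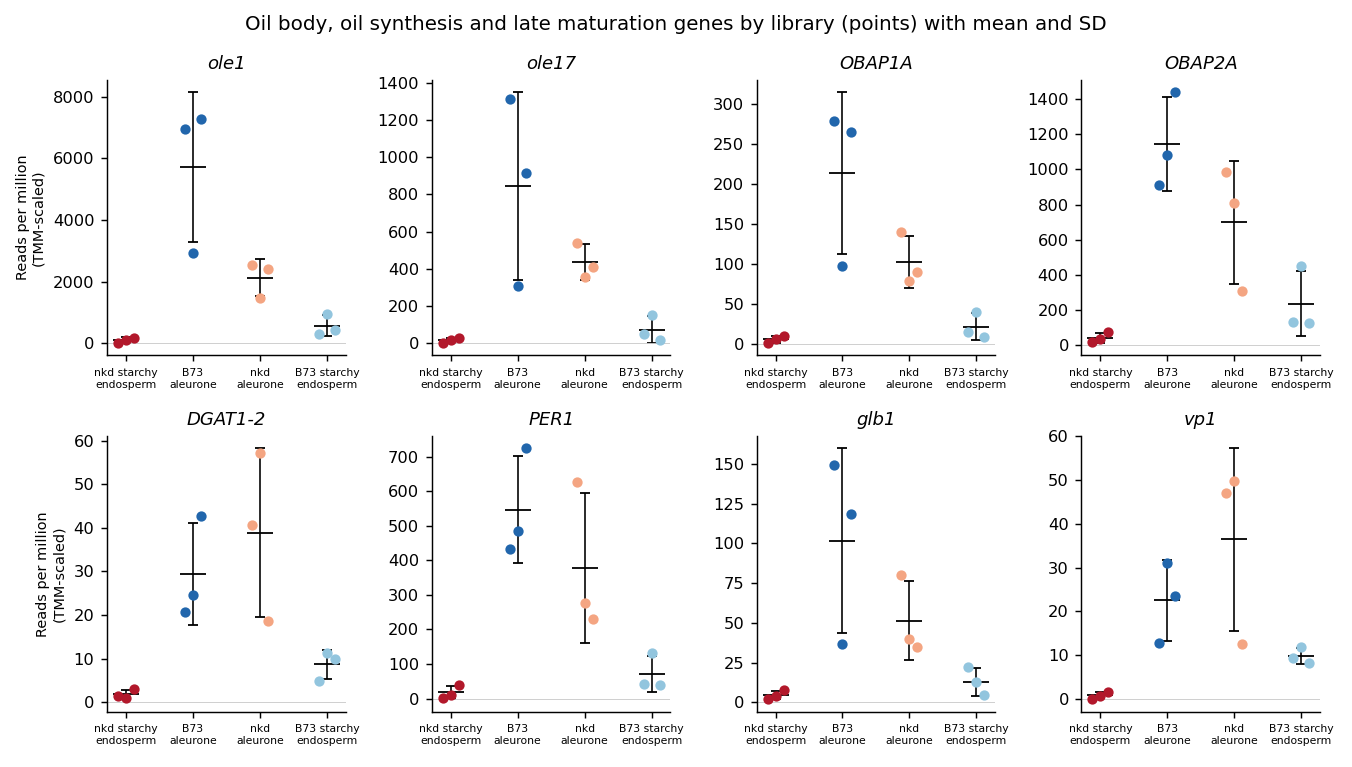
Oil body and late maturation genes by library in TMM-scaled CPM (points, with mean and SD, n = 3), for nkd starchy endosperm, B73 aleurone, nkd aleurone and B73 starchy endosperm. ole1 stands at 16.8 to 188.4 CPM in nkd starchy endosperm and at 2926 to 7276 CPM in B73 aleurone.

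Of 12 genes for dehydrins, other late embryogenesis abundant proteins and late seed maturation, 4 fell and none rose. This is set beside 4.67% and 2.66% of all genes, and the median log2 difference was -2.59. vp1, the B3-domain activator of seed maturation, measured 0.0389, 0.644 and 1.67 CPM in nkd starchy endosperm, against 12.8, 31.2 and 23.5 CPM in B73 aleurone (log2 change -4.80, SE 0.88, adjusted p = 0.00711). PER1, a seed peroxiredoxin, measured 2.49, 11.03 and 39.1 CPM in nkd starchy endosperm, against 431.9, 485.4 and 724.4 CPM in B73 aleurone (log2 change -4.96, adjusted p = 0.00641). glb1, a 7S-type globulin that is also a marker of the embryo, measured 2.37, 4.06 and 7.46 CPM in nkd starchy endosperm, against 149.6, 36.9 and 118.4 CPM in B73 aleurone (log2 change -4.45, adjusted p = 0.00331). All 3 calls held in the 23 alternatives. Their cell type components were -3.35, -3.69 and -3.21, and their genotype components, -1.45, -1.27 and -1.24, did not pass. EMB5, a late embryogenesis abundant protein gene, had 0 reads in nkd starchy endosperm and 160 in B73 aleurone, so it was at least 44.9-fold lower with a floor of 3 reads over the group. Its call was lost with the replicate block (adjusted p = 0.0598, with 0.000532 to 0.246 over its alternatives) and without B73 aleurone replicate 3 (adjusted p = 0.106). RAB15, also on the list, stayed high in both groups, at 1068, 1636 and 932.9 CPM in nkd starchy endosperm and 1855, 1096 and 923.4 CPM in B73 aleurone (log2 difference -0.09, adjusted p = 0.939). glb3 measured 808.7, 522.5 and 394.1 CPM in nkd starchy endosperm and 1298, 551.4 and 645.2 CPM in B73 aleurone (adjusted p = 0.674), from components of 2.85 for cell type and -3.38 for genotype.

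The list of aleurone markers, which includes the mutated Nkd1 and Nkd2, gave fewer calls. Of 7 tested, 1 fell and none rose, set beside 4.67% and 2.66% of all genes. With cell type 1 of the 7 rose and 2 fell, set beside 5.99% and 7.42%, so not all behaved as aleurone markers here. The gene that fell was vpp1, a vacuolar proton pump gene. It measured 162.2, 228.5 and 559.9 CPM in nkd starchy endosperm, against 1017, 3199 and 2974 CPM in B73 aleurone (log2 change -2.92, adjusted p = 0.0381). Without nkd starchy endosperm replicate 1 its adjusted p was 0.13. dek1 and cr4, which act in aleurone cell fate, had log2 differences of -0.81 (adjusted p = 0.168) and -0.14 (adjusted p = 0.89). Sal1, also on the list, had a log2 difference of -0.57 (adjusted p = 0.362). Among 9 genes of epidermal identity and asymmetric division, 1 fell and none rose, set beside 4.67% and 2.66% of all genes. Their median log2 difference was -0.15, with 6 below 0 and 3 above. The gene that fell was ocl1, an HD-ZIP IV factor of the outer cell layer. It measured 0.661, 3.10 and 7.46 CPM in nkd starchy endosperm, against 22.6, 22.7 and 49.9 CPM in B73 aleurone (log2 change -3.08, adjusted p = 0.0291). Without B73 aleurone replicate 3 the adjusted p was 0.125. The related ocl5 had 0.816, 7.31 and 9.67 CPM in nkd starchy endosperm and 37.0, 35.8 and 55.8 CPM in B73 aleurone but did not pass (log2 difference -2.85, adjusted p = 0.0776), and gl1 did not pass with -3.65 (adjusted p = 0.148). The libraries of both genes were apart without overlap. For these 3 genes the cell type component carried the difference (-3.71 for ocl1, -3.35 for ocl5 and -2.97 for gl1), and the genotype component was between -0.68 and 0.64.

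Among 12 anthocyanin genes, 3 fell and none rose, set beside 4.67% and 2.66% of all genes. Their median log2 difference was -0.83, with 7 below 0 and 5 above, up to 4.39. fht1, flavanone 3-hydroxylase, measured 0.428, 2.28 and 3.53 CPM in nkd starchy endosperm, against 22.3, 20.9 and 27.9 CPM in B73 aleurone (log2 change -3.50, adjusted p = 0.0119). r1, a bHLH regulator of pigment genes, had 0 reads in nkd starchy endosperm and 114 in B73 aleurone, at least 32-fold lower with a floor of 3 reads over the group. Its adjusted p of 0.0206 became 0.0599 without B73 aleurone replicate 2. vp1 is the third. A1, the dihydroflavonol reductase gene, had 1.63, 1.76 and 11.6 CPM in nkd starchy endosperm and 13.1, 30.1 and 41.7 CPM in B73 aleurone (adjusted p = 0.177). BZ1, bz2 and chi1 did not pass either, with log2 differences of -0.34, 0.14 and 0.84.

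Defence and protease inhibitor genes were low in the mutant inner cells: 9 of 19 fell and none rose, set beside 4.67% and 2.66% of all genes, with a median log2 difference of -1.86. Chitinases, a wound-induced inhibitor and a defensin were among them. chiA, a chitinase gene, measured 0, 0.0991 and 0.116 CPM in nkd starchy endosperm, against 11.5, 21.0 and 21.7 CPM in B73 aleurone (log2 change -7.80, SE 1.34, adjusted p = 0.00494). chiB, a second chitinase gene, measured 76.5, 58.7 and 24.01 CPM in nkd starchy endosperm, against 337.2, 275.7 and 370.3 CPM in B73 aleurone (log2 change -2.63, adjusted p = 0.0263). wip1, a wound-induced proteinase inhibitor, had 2 reads in nkd starchy endosperm and 1190 in B73 aleurone, a ratio of 501 for B73 aleurone over nkd starchy endosperm (95% counting interval 138.4 to 4142). DEF1, a defensin gene, had 0.117, 0.768 and 4.93 CPM in nkd starchy endosperm, against 55.0, 55.8 and 15.97 CPM in B73 aleurone (log2 change -4.43, adjusted p = 0.0149). Of the cysteine proteinase inhibitor genes, psei6 fell most (log2 change -2.97, adjusted p = 0.0104), followed by psei4 (-1.86) and psei1 (-1.48). prp2, a pathogenesis-related gene, had 6.84, 20.1 and 128.6 CPM in nkd starchy endosperm and 898.3, 547.4 and 889.5 CPM in B73 aleurone (log2 change -3.91, adjusted p = 0.0291).

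In the components of the defence list, 10 of 19 fell and 1 rose with genotype (median log2 difference -2.02), set beside 8.84% and 6.84%. With cell type 4 fell and 3 rose (median 0.48, or -0.64 without B73 starchy endosperm replicate 2), set beside 7.42% and 5.99% of all genes. chiA had components of 0.69 for cell type and -8.48 for genotype, wip1 of -0.40 and -8.36, and psei6 of 1.33 and -4.30. Zlp and prp2 had both components negative, at -3.55 and -7.66 for Zlp and at -2.22 and -1.69 for prp2. MPI, a maize protease inhibitor, measured 395.1, 205.1 and 168.7 CPM in nkd starchy endosperm and 1102, 402.1 and 572 CPM in B73 aleurone without passing (adjusted p = 0.242). Zlp, chiA, wip1 and psei6 were called in all 23 alternatives. The other 5 each lost the call without at least 1 library, with adjusted p up to 0.0917 for prp2 without nkd starchy endosperm replicate 2, 0.0895 for chiB and 0.069 for psei1 without B73 aleurone replicate 3, 0.0699 for psei4 without nkd starchy endosperm replicate 1 and 0.0534 for DEF1 without nkd starchy endosperm replicate 2. The count of falls was then 5 to 10.

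Of 20 lipoxygenase and jasmonate genes, 3 fell and none rose, set beside 4.67% and 2.66% of all genes. aoc1, allene oxide cyclase of jasmonate synthesis, measured 16.9, 13.4 and 34.8 CPM in nkd starchy endosperm, against 626.3, 699.5 and 895.1 CPM in B73 aleurone (log2 change -5.09, SE 0.75, adjusted p = 0.0023), with components of -2.87 and -2.22. The 12-oxophytodienoate reductase-type genes opr5 and opr7 fell by 3.35 and 2.18 on the log2 scale. aos1, allene oxide synthase, did not pass, at 15.97, 5.65 and 66.0 CPM in nkd starchy endosperm and 54.3, 43.7 and 36.0 CPM in B73 aleurone (adjusted p = 0.63). aoc1 was called in all alternatives, while without nkd starchy endosperm replicate 1 the adjusted p was 0.0607 for opr5 and 0.114 for opr7. With the replicate block a lipoxygenase gene, lox12, fell as well.

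Of 15 catalase and oxidative stress genes, 6 fell and 1, gst42, rose, set beside 4.67% and 2.66% of all genes. Of the 15 log2 differences 13 were below 0, and their median was -1.90. cat2, a catalase gene, measured 0.0777, 0 and 0.744 CPM in nkd starchy endosperm, against 31.2, 27.7 and 99.9 CPM in B73 aleurone (log2 change -7.52, SE 1.14, adjusted p = 0.00254), and its genotype component was -6.13. cat1 overlapped between the groups (log2 difference -0.07, adjusted p = 0.938). gst1, a glutathione S-transferase gene, measured 59.4, 86.3 and 75.1 CPM in nkd starchy endosperm, against 463.3, 561.3 and 660.7 CPM in B73 aleurone (log2 change -2.93, adjusted p = 0.0013). gst5 and gst6 fell by 5.12 and 3.16 on the log2 scale. Over all 22 genes with a GST name, 8 fell and 1 rose, set beside the same 4.67% and 2.66%. sod4, a superoxide dismutase gene, fell by 1.99 and PRX1 by 3.00 on the log2 scale. Calls of gst6, sod4 and PRX1 were lost without single libraries, with adjusted p up to 0.104, 0.0678 and 0.103. The replicate block also ended the call of gst6 (adjusted p = 0.0509, with 0.000603 to 0.104 over its alternatives).

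Smaller lists gave 1 to 3 calls each, and their genes outside the rule for naming were picked after their values were seen. In the cytokinin list 2 of 15 fell, set beside 4.67% of all genes: ckx1, given above, and crr2, a type-A response regulator. crr2 measured 6.22, 5.48 and 5.18 CPM in nkd starchy endosperm, against 27.4, 72.7 and 48.2 CPM in B73 aleurone (log2 change -3.13, SE 0.41, adjusted p = 0.00107), and its components were 0.77 for cell type and -3.90 for genotype. In the glyoxylate and hydrolase list 2 of 6 fell, ICL and mas1, set beside 4.67% of all genes. mas1, malate synthase, was at 3.42, 0.966 and 10.2 CPM in nkd starchy endosperm and 67.3, 22.7 and 99.4 CPM in B73 aleurone (log2 change -3.70, adjusted p = 0.0427). The call of mas1 was lost with the replicate block (adjusted p = 0.056, with 0.0015 to 0.16 over its alternatives) and without B73 aleurone replicate 3 (adjusted p = 0.16). Of 13 amino acid and non-zein Opaque2 target genes, gln2 and gln1, glutamine synthetase genes, fell and asn3, an asparagine synthetase gene, rose. Over all genes 4.67% fell and 2.66% rose. gln2 measured 5.87, 7.04 and 26.1 CPM in nkd starchy endosperm, against 176.5, 131.9 and 278.3 CPM in B73 aleurone (log2 change -3.91, adjusted p = 0.00432). asn3 overlapped between the groups, at 21.8, 1.86 and 99.9 CPM in nkd starchy endosperm and 1.84, 1.72 and 3.58 CPM in B73 aleurone, and without nkd starchy endosperm replicate 3 its adjusted p was 0.136. Both asn3 (adjusted p = 0.0741, with 0.000396 to 0.255 over its alternatives) and gln1 (adjusted p = 0.0505, with 0.00279 to 0.203) missed the threshold with the replicate block.

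In the fermentation list 2 of 10 fell, set beside 4.67% of all genes. They were the glyceraldehyde-3-phosphate dehydrogenase gene gpc2 (log2 change -1.78, adjusted p = 0.0236) and the pyruvate decarboxylase gene pdc3 (log2 change -1.56, adjusted p = 0.0235). gpc4, of the same family as gpc2, measured 2129, 3474 and 1167 CPM in nkd starchy endosperm and 956.4, 480.8 and 425.4 CPM in B73 aleurone, just outside the threshold (log2 difference 1.86, adjusted p = 0.0543). Without B73 aleurone replicate 3 the adjusted p was 0.101 for gpc2 and 0.136 for pdc3. In the carotenoid list 1 of 11 entries fell, set beside 4.67% of all genes. The adjusted p of this entry was 0.0289, or 0.121 without B73 aleurone replicate 3. It was matched by the symbol PS1, but its identifier also bears the name LA1, so it is not read as a carotenoid gene. HYD3, a carotene hydroxylase gene, measured 410.9, 321.4 and 320.7 CPM in nkd starchy endosperm and 209.3, 134.6 and 100.7 CPM in B73 aleurone, without overlap (log2 difference 1.24, adjusted p = 0.0504). It passed with the replicate block (adjusted p = 0.0301, with 0.0056 to 0.461 over its alternatives). No gene passed among 9 endoplasmic reticulum folding genes, 6 gibberellin, 5 iron, 4 phytate, 7 sugar transport, 2 tocochromanol and 11 photosynthesis genes. Over all genes 7.33% passed.

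Heat shock genes were higher in the mutant inner cells: 4 of 13 rose and none fell, set beside 2.66% and 4.67% of all genes, all 13 log2 differences were above 0, and their median was 2.08. HSP90-1 measured 136.9, 298.2 and 132.6 CPM in nkd starchy endosperm, against 21.3, 30.3 and 30.3 CPM in B73 aleurone (log2 change 2.79, SE 0.51, adjusted p = 0.00711). hsp18f, a small heat shock protein gene, measured 655.9, 1078 and 260.7 CPM in nkd starchy endosperm, against 95.7, 42.6 and 17.7 CPM in B73 aleurone (log2 change 3.68, adjusted p = 0.0125). hsp82 had 4.94, 45.3 and 11.9 CPM in nkd starchy endosperm and 2.60, 0.632 and 0.204 CPM in B73 aleurone (log2 change 4.15, adjusted p = 0.0492). These genes are among the largest named rises, for which groups without overlap were required. hsp22 measured 663.7, 630.3 and 702.5 CPM in nkd starchy endosperm and 60.0, 382.6 and 28.9 CPM in B73 aleurone, where the spread kept it from passing (log2 difference 2.08, adjusted p = 0.221). With genotype 6 of the 13 rose (median log2 difference 1.17), set beside 6.84% of all genes. With cell type 2 rose (median 0.72, or 1 rise without B73 starchy endosperm replicate 2), set beside 5.99%. HSP90-1 had components of 0.02 for cell type and 2.77 for genotype. The list's share of gene reads was 0.570% ± 0.1002 in nkd starchy endosperm and 0.177% ± 0.067 in B73 aleurone (SD, n = 3 each). With the replicate block 6 genes rose, with hsp18c (adjusted p = 0.0359) and hsp22 (adjusted p = 0.0336) added. Leaving out single libraries gave 2 to 5 rises, with adjusted p up to 0.174 for hsp82 without nkd starchy endosperm replicate 2 and 0.0568 for hsp18f without B73 aleurone replicate 2.

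Of 19 cell cycle and replication genes, 3 rose and none fell, set beside 2.66% and 4.67% of all genes. Of their log2 differences 14 were above 0 and 5 below, with a median of 0.58. pcna1, the sliding clamp of DNA polymerase, measured 162.5, 231.1 and 177.2 CPM in nkd starchy endosperm, against 30.9, 45.5 and 48.5 CPM in B73 aleurone (log2 change 2.19, SE 0.40, adjusted p = 0.00671). Its components were 0.05 for cell type and 2.14 for genotype. MCM7, a helicase subunit of replication origins, and rbr3, of the retinoblastoma-related family, had log2 changes of 1.82 (adjusted p = 0.0343) and 1.90 (adjusted p = 0.0369). Both lost the call without B73 aleurone replicate 1 (adjusted p = 0.145 and 0.147), as MCM7 did with the replicate block (adjusted p = 0.0632, with 0.000481 to 0.145 over its alternatives). With genotype 10 of the 19 rose (median 1.44), set beside 6.84% of all genes, and with cell type 2 fell, set beside 7.42%.

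Of 9 histone genes, 2 rose, set beside 2.66% of all genes, all 9 log2 differences were above 0, and their median was 1.34. H1, a linker histone gene, measured 201.3, 189.8 and 170.6 CPM in nkd starchy endosperm, against 44.2, 60.5 and 50.4 CPM in B73 aleurone (log2 change 1.86, SE 0.32, adjusted p = 0.00514). H3C2, a core histone gene, measured 134.2, 104.5 and 111.5 CPM in nkd starchy endosperm, against 28.7, 31.8 and 47.1 CPM in B73 aleurone (log2 change 1.70, adjusted p = 0.0184, or 0.0867 without B73 aleurone replicate 1). The list's share was 0.401% ± 0.050 in nkd starchy endosperm and 0.157% ± 0.071 in B73 aleurone (SD, n = 3 each). Of 10 Polycomb and DNA methylation genes, 2 rose, fie1 and met1, set beside 2.66% of all genes, while 6 of the 10 log2 differences were below 0 and their median was -0.13. fie1, an imprinted Polycomb gene of the endosperm, measured 114.3, 128.7 and 93.0 CPM in nkd starchy endosperm, against 50.8, 45.7 and 47.1 CPM in B73 aleurone (log2 change 1.23, adjusted p = 0.036). met1, a maintenance-type DNA methyltransferase gene, measured 36.9, 35.6 and 30 CPM in nkd starchy endosperm, against 10.3, 15.3 and 14.9 CPM in B73 aleurone (log2 change 1.34, adjusted p = 0.0299). Neither passed with the replicate block (adjusted p = 0.0602 for fie1, with 0.00289 to 0.453 over its alternatives, and 0.0505 for met1, with 0.000783 to 0.313), and adjusted p reached 0.121 for fie1 without B73 aleurone replicate 2 and 0.135 for met1 without B73 aleurone replicate 1.

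Ribosomal protein genes had small positive differences. Of 29, 4 rose and none fell, set beside 2.66% and 4.67% of all genes. Of the 29 log2 differences 26 were above 0, and their median was 0.84. rps24 measured 600.5, 589.6 and 652.7 CPM in nkd starchy endosperm, against 244.1, 228.7 and 175.4 CPM in B73 aleurone (log2 change 1.51, SE 0.29, adjusted p = 0.00927). The rps4 gene GRMZM2G125271 had a log2 change of 1.56, rpl12 of 1.37 and rpl35 of 1.30. With cell type 8 rose (median 0.68), set beside 5.99% of all genes. With genotype 2 rose and 1 fell (median 0.13), set beside 6.84% and 8.84%. The list's share was 1.45% ± 0.03 in nkd starchy endosperm and 0.719% ± 0.060 in B73 aleurone (SD, n = 3 each). Only the rps4 gene kept its call with each library left out. Adjusted p reached 0.0504 for rps24 and 0.148 for rpl35 without B73 aleurone replicate 3 and 0.134 for rpl12 without B73 aleurone replicate 1. rpl35 missed the threshold with the replicate block (adjusted p = 0.0581, with 0.002 to 0.481 over its alternatives). On the deposited values without rescaling between the 2 tables the median of all genes was -1.04, and the ribosomal median was then -0.12 and that of cell cycle genes -0.35. The direction of these lists is therefore stated relative to the median gene.

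**Figure D5:**
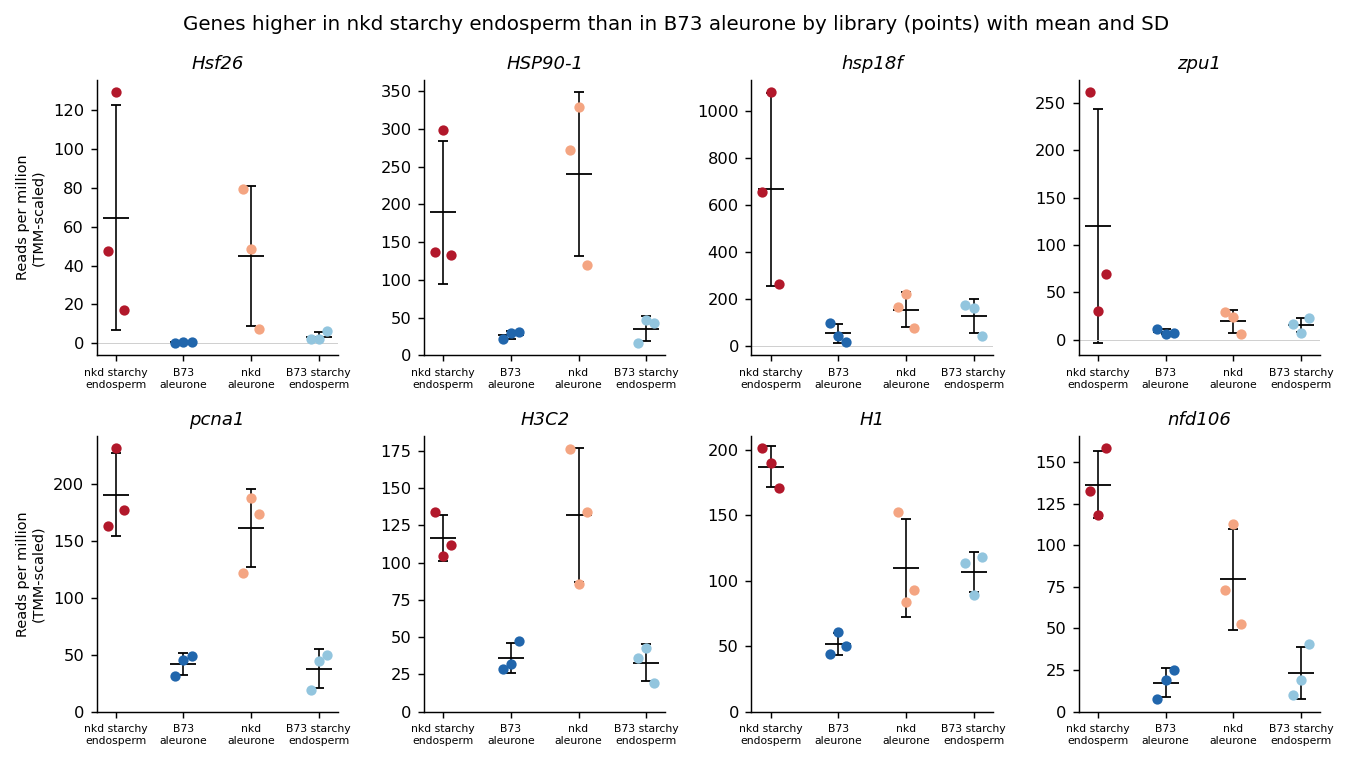
Genes higher in nkd starchy endosperm than in B73 aleurone, in TMM-scaled CPM by library (points, with mean and SD, n = 3), for nkd starchy endosperm, B73 aleurone, nkd aleurone and B73 starchy endosperm. pcna1 stands at 162.5 to 231.1 CPM in nkd starchy endosperm and at 30.9 to 48.5 CPM in B73 aleurone.

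Markers of other kernel tissues were checked in both groups. Basal transfer layer genes, which mark the endosperm cells that import sugar from the mother plant, summed to 28.4, 56.4 and 524.3 CPM over 16 genes in nkd starchy endosperm, against 14.2, 36.8 and 34.1 CPM in B73 aleurone. The third mutant library was far above the rest, and nkd aleurone replicate 3, from the same flow cell, had 272 CPM. The median log2 difference of the 15 tested genes was 3.61 and 1 gene rose, bap-3b, set beside 2.66% of all genes. It measured 0.194, 0.669 and 13.3 CPM in nkd starchy endosperm and 0, 0.0903 and 0.0584 CPM in B73 aleurone (adjusted p = 0.0392). Without nkd starchy endosperm replicate 3 none rose, the median was 1.10 and the adjusted p of bap-3b was 0.157. betl2 had 11.5, 12.5 and 189.2 CPM in nkd starchy endosperm and 0.30, 6.68 and 4.42 CPM in B73 aleurone (adjusted p = 0.096). With the replicate block bap-3a, bap-3b and betl2 rose, betl2 with an adjusted p of 0.0248 (0.0248 to 0.407 over its alternatives). bap-3a had no read in B73 aleurone. The part of transfer layer cells in other differences was not tested. Without that library, the comparison had 793 higher and 1628 lower genes, the oil list 9 falls, the defence list 10 and the heat shock list 4 rises.

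Among embryo and meristem markers 1 of 7 fell, glb1, set beside 4.67% of all genes. Of 15 genes of the maternal pericarp and nucellus none passed, set beside 7.33% of all genes. The summed level of all 18 genes of the list was 301.2, 146.5 and 1051 CPM in nkd starchy endosperm, against 1074, 613.4 and 615.3 CPM in B73 aleurone. The third mutant library stood apart from the other two here as well. The median log2 difference was -1.07, and without that library it was -2.49 with 2 falls. Embryo-surrounding region genes summed to at most 6.88 CPM in nkd starchy endosperm and 3.90 CPM in B73 aleurone.

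The reverse pairing, nkd aleurone against B73 starchy endosperm, shares no library with this one. It gave 4557 calls (17.9%), 2140 genes higher (8.39%) and 2417 lower (9.48%) in nkd aleurone than in B73 starchy endosperm. Without B73 starchy endosperm replicate 2 it gave 4969 calls, which kept 83.2% of the 4557. Across all genes the log2 differences of the pairings correlated at 0.204 (Pearson) and 0.0487 (Spearman), a description over genes that share amplification and depth within each library. Of the genes called here, 706 were called there as well, which is 37.8% of the calls here and 15.5% of the calls there. In 519 of them nkd stood in the same direction relative to B73 in both pairings, 169 higher and 350 lower. In 187 the direction was opposite: 142 were lower in nkd starchy endosperm than in B73 aleurone and higher in nkd aleurone than in B73 starchy endosperm, and 45 the other way round.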

How the data were processed

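Gene-level values came from 2 deposited tables, 1 for aleurone and 1 for starchy endosperm, each with 6 libraries and 63540 transcripts. Per the submitters' processing notes, FastQC, TopHat and DESeq were used. For version, genome build, annotation and strand the entry is: not given in the sources used here. The deposited values are read signal divided by a size factor per library: in every library 100% of values were whole multiples of the smallest step within 0.01 of a read, and dividing by it recovered whole reads. The authors' scaling was made within each table, so all 12 libraries were rescaled together. The transcript with the highest mean was kept for each of 39656 genes, because 16036 of 35783 expressed transcripts (44.8%) of genes with several had values identical to another of their gene. Symbols were matched by identifier to a RefSeq name table (Zm-B73-REFERENCE-NAM-5.0, names only) for 18775 genes (47.3%).

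Recovered counts were tested with edgeR 4.0.16 in R 4.3.3, with TMM factors and filterByExpr at a minimum count of 10. The quasi-likelihood F test ran over 4 groups of 3 with 8 residual degrees of freedom. It was two-sided, with Benjamini-Hochberg adjustment over 25499 genes and a threshold of 0.05. The code was run on counts simulated with the fitted spread per gene. That simulation held no flow-cell effect and no mixed cells, so it says nothing of these. The common biological coefficient of variation was 0.606. Intervals and floors cover counting error only, and amplified reads are not independent molecules. Alternatives were RLE factors, TMM without zeins, no filter, a minimum count of 50, limma 3.58.1 with pseudocounts of 1 and 0.1, DESeq2 1.42.0, the 6 libraries alone, the first transcript, the deposited values without rescaling, a flow-cell block and leaving out each library. The labels place same-numbered libraries on 1 flow cell, which makes the number a batch. The deviations of same-numbered libraries from their group means correlated at -0.236 to 0.216. Nothing states whether replicates came from separate plants.

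Members and the 32 gene lists (412 entries) were chosen with earlier results of these data known, and some list entries were added once the names in the tables had been read. Genes named by rule are Nkd1 and Nkd2, the 10 largest named rises and falls with a mean of at least 5 CPM, adjusted p under 0.05 and no overlap, and up to 4 genes per list with the highest mean. Other genes were named after their values were seen.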

Additional observations from a re-analysis of the deposited data

How the results depend on the processing

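Of 74 called identifiers chosen by rule or from the lists, 35 kept the call in every alternative that tested them (ZCN10 counts under both of its identifiers). By DESeq2, 1844 genes were higher and 2252 lower (45.0% of calls higher, against 36.3%). These held 1859 of the 1869 calls in the same direction. For the average cell type difference DESeq2 called 5473 genes. On deposited values without rescaling, 333 were higher and 8336 lower with a median of -1.04 (3.84% of calls higher), and sut2, at 0.01 (adjusted p = 0.993), was at -0.99 (adjusted p = 0.0419, the range of its alternatives being 0.0419 to 1); the tables carry separate scalings. With limma, 821 were higher and 1606 lower at a pseudocount of 1. The replicate block kept 1419 of the 1869 calls (75.9%), and it changed no call of a gene named in the report apart from those given there. Leaving out 1 library gave 131 to 991 higher and 476 to 1686 lower genes, 1739 to 4436 for cell type, 2581 to 4110 for genotype, 2878 to 5062 for the reverse pairing, and differences in the zein share of gene reads of -15.11 to -8.78 points; the fewest calls came without a B73 aleurone library, except in the reverse pairing (without B73 starchy endosperm replicate 1). Without B73 starchy endosperm replicate 3 the comparison had 2677 calls, more than the 1869 with all libraries. The cause of these shifts was not tested. At an unadjusted p under 0.05, 6063 genes differed. B73 aleurone replicate 2 is the shallowest of the 6 libraries, and its effect on low genes was not tested.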

Other observations

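Transcription factor families were counted by name where 10 or more members were tested, and 7.33% of all genes were called between nkd starchy endosperm and B73 aleurone (2.66% higher, 4.67% lower). Of 24 EREB genes, 3 fell and none rose, with a median log2 difference of -0.28. Of 24 MYB genes, 4 fell and none rose (median 0.18). Of 19 ARF genes, 1 rose and 3 fell (median -0.03). Of 28 BZIP genes, 2 fell (median -0.31), and of 16 NAC genes, 2 fell (median -0.38). None of 15 WRKY or 14 AUX genes passed, although 13 of the 14 AUX genes had log2 differences below 0 (median -0.88), and 4 of the 14 were lower without overlap, set beside 18.9% of all genes. Families follow the names in the RefSeq table and were counted after the data had been seen.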
